A study of Drosophila melanogaster with 3 samples.

Results

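The 7 genes msl-1, msl-2, msl-3, mle, mof, Clamp and JIL-1 encode proteins of X-chromosome dosage compensation, and the binding of the Row protein was read at each of them. They were chosen by name, as 7 of the 13968 protein-coding genes that Ensembl places on the 7 chromosome arms of the fly genome. For each gene the summits within 500 bp of a transcription start site (TSS), here called promoter summits, and those elsewhere between its ends, here called gene body summits, were collected. Row summits stood at the promoters of msl-1, JIL-1 and Clamp, and inside JIL-1, in the main peak list. No promoter summit passed its threshold at msl-2, msl-3, mle or mof.

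Male flies have a single X chromosome, and dosage compensation raises the transcription of its genes. The MSL complex does this: MSL1 is the scaffold, MSL2 the subunit made in males, MSL3 a chromodomain protein, MLE an RNA helicase that remodels the roX RNAs, and MOF the acetyltransferase of histone H4. CLAMP is a zinc-finger protein that binds GA repeats at the entry sites of the complex, and JIL-1 is a histone H3 kinase enriched on the male X. Row is itself a zinc-finger protein that works with its relative WOC and the heterochromatin protein HP1c.

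The data were chromatin immunoprecipitations with sequencing (ChIP-seq) from whole embryos of 0 to 24 h of Drosophila melanogaster, all of 1 transgenic strain, row-GFP, with an inserted fusion of Row and eGFP, and the tag was the target of the antibody. The tagged strain was the single group, with 3 biological replicates and no untagged or untreated counterpart among the samples, so no comparison of conditions was possible and no test was run. The labels record no sex, and whole embryos mix cell types and stages. Read depth is unknown. Each replicate has a ranked list of all candidate peaks and a thresholded list. The latter holds peaks past a limit on the irreproducible discovery rate (IDR), the expected share that fail to repeat between both inputs of a list. Pairs of replicates and a pooled list have such lists too. The inputs of the pooled list each shared at most 0.0112% of their intervals with any replicate. IDRs of a single replicate or of the pooled list are therefore not read as repeat between biological replicates. On the arms, the thresholded lists of replicates 1, 2 and 3 had 10959, 8564 and 7608 entries. The main list is the authors' conservative list of 10483 peaks, whose choice rests on replicates 1 and 2, with a limit of 0.01 on the IDR. Its signals are those of a pool. The lists of the other replicate pairs and the pooled list give the same signals, so they are not those of replicates 1 and 2 alone. The signal of a peak is the value that the authors deposited for it, and it is compared only within a list. Rank 1 is the highest signal. All positions are on assembly dm6.

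Of the 7 genes, 3 had a promoter summit in the main list, and 36.4% of all protein-coding genes did. The same 3 had one in the thresholded lists of all 3 replicates, as did 28.5% of all protein-coding genes. In the single replicates the count was 4 of 7 in replicate 1 (40.3% of all genes), 3 of 7 in replicate 2 (32.0%) and 4 of 7 in replicate 3 (32.8%), the added gene being mle each time. With 7 genes, these counts are read only as a description. The 3 genes lie on 2L and 3L. The single X-linked gene of the set, mof, was not among them.

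msl-1, the scaffold gene, had the strongest promoter summit of the set. The gene lies on the minus strand of 2L at 18683720 to 18688800, and its peak at 18688696 to 18689248 overlapped the TSS, with the summit 100 bp upstream of it, outside the gene. Its signal was 1762, rank 425 of 10483, so that 4.05% of the peaks were at or above it. Among the 5089 genes with a promoter summit, msl-1 ranked 490 by the strongest summit of each gene, whose median signal was 507. The signal in the replicates was 483 in replicate 1, 498 in replicate 2 and 830 in replicate 3. In percent of each list at or above it, these were 6.12%, 7.70% and 2.36%, with a mean of 5.39% ± 2.75 (SD, n = 3). Replicate 3 placed it highest by rank. The summit lay 73, 106 and 102 bp upstream of the TSS in replicates 1, 2 and 3, that is, in nearly the same place.

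The bases around the msl-1 summit are shown because this was the set's strongest promoter. The RefSeq sequence of dm6 is given on the minus strand, in the direction of transcription, from chr2L:18688801-18689000. Capitals, here and in the other sequences, mark matches on either strand to a GA repeat (GAGAG), the replication-related element DRE (TATCGATA), the BEAF-32 core (CGATA), the core of motif 1 (GGTCACAC) or a TATA box (TATAAA). The msl-1 window holds none of them.
msl-1 promoter: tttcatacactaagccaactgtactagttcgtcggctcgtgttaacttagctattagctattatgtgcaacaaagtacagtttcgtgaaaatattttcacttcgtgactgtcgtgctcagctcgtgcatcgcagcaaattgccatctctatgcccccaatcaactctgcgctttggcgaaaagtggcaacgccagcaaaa
Its G+C content over the 201 bp around the summit was 44.8%, above the upper quartile of 39.3% for all main-list summits, whose median was 34.3%. The peak was 553 bp wide, beside a median of 436 bp in the list.

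The next gene upstream of msl-1 is CG10336, which is read the other way and starts 728 bp from the msl-1 TSS. It had a summit of its own 1 bp from its TSS, with a signal of 445, rank 3447. The msl-1 summit had the higher signal in each replicate: the ratio of msl-1 to CG10336 was 2.48 in replicate 1, 2.97 in replicate 2 and 3.93 in replicate 3, a mean of 3.13 ± 0.735 (SD, n = 3). So the msl-1 peak was separate from its neighbour's and stronger than it in 3 of 3 replicates.

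msl-2, which encodes the subunit limiting for complex formation in males, had no promoter summit in the thresholded lists. It spans 3462218 to 3466112 on 2L, minus strand, and shares its promoter with ND-PDSW, a gene for a mitochondrial complex I subunit whose TSS is 45 bp away in the other direction. The ranked list of replicates 1 and 2 placed a summit 16 bp upstream of the msl-2 TSS with a signal of 88.9, rank 12328 of 46490, at an IDR of 0.439. Replicate 1 had a ranked summit of 41.8 at an IDR of 0.0542, and replicates 2 and 3 had no ranked summit within 500 bp. The lowest IDR in any ranked list was 0.0161, in the list of replicates 1 and 3, which is just outside the limit.

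msl-3, the chromodomain gene on 3L at 7123213 to 7125533, minus strand, had none either. Its ranked summit lay 29 bp inside the gene, in the 5′ UTR, with a signal of 68.4 and an IDR of 0.178 in the list of replicates 1 and 2. The signal was 36.0 in replicate 1 and 21.2 in replicate 2, where the summit lay 235 bp inside the gene, and replicate 3 listed none. Over the ranked lists that held an msl-3 promoter summit, the IDR was between 0.178 and 0.509, far above the limit. BBS1, its divergent neighbour, starts 372 bp away.

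mof, the gene of the histone H4 acetyltransferase, lies on X at 5873840 to 5876853, minus strand. It had ranked summits in all 3 replicates, with signals of 35.8, 21.0 and 28.2 and IDRs of 0.180, 0.397 and 0.0820 in replicates 1, 2 and 3. None of the 3 passed the threshold. The summit lay 35 and 39 bp inside the gene in replicates 1 and 2. In replicate 3 it lay 176 bp inside, in a coding exon. In the list of replicates 1 and 2 the summit had a signal of 81.1 and lay 38 bp inside the gene, in the 5′ UTR, at an IDR of 0.193. The pooled ranked list, whose inputs are not the replicates, gave 0.0134 for the same summit, just outside the limit. The nearest main-list summit, of signal 303, stood 34 bp from the TSS of GAA1, beyond the 3′ end of mof.

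mle, the RNA helicase gene on 2R at 5974857 to 5980778, minus strand, was the borderline case. Its promoter summit had a signal of 94.4 in replicate 1 and 84.4 in replicate 3, where both passed the threshold, 51 and 53 bp upstream of the TSS. Replicate 2 listed it only among the ranked peaks, at 20.6 with an IDR of 0.118. For the same summit, with a signal of 209 in the pool, the IDR was 0.459 in the ranked list of replicates 1 and 2 and 0.000328 in that of replicates 1 and 3. The main list, made from replicates 1 and 2, does not hold it, while the list of replicates 1 and 3 and the pooled list do. In the pooled list, where 42.7% of all genes have a promoter summit, mle is the fourth of the set, with rank 6820. The strong summit beyond the 3′ end of mle, with a signal of 931, lay 92 bp from the TSS of BubR1, a spindle checkpoint gene.

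When every ranked peak is counted, whatever its IDR, all 7 genes had a promoter summit in the list of replicates 1 and 2, as did 56.9% of all genes, and in replicate 1, where 65.6% did. In replicate 2 they were 6 of 7, beside 52.2% of all genes, and in replicate 3 they were 5 of 7, beside 52.5%. A ranked entry alone is therefore common. By place in the list, msl-1, JIL-1 and Clamp were the 3 highest of the set in every list, thresholded or ranked, in that order. They are also the 3 genes past the threshold in all 3 replicates, so this order is no separate support. The order of the other 4 changed between lists. In the ranked lists of replicates 1 and 3, mle lay at 9.21% and 17.8%, beside 3.75% and 7.38% for Clamp. The plot of ranks by replicate shows these places.

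**Figure D1:**
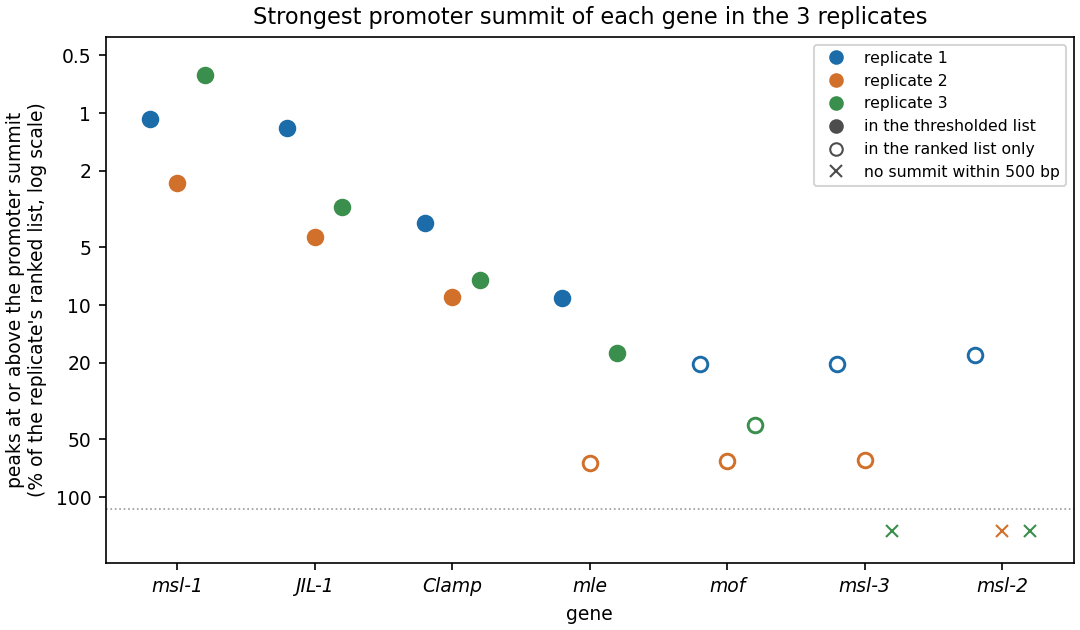
Share of each replicate's ranked peaks with a signal at or above the strongest promoter summit of each gene, on a reversed log scale, so that stronger summits stand higher. Filled points passed the replicate's threshold, open points are ranked only, and crosses mark replicates with no summit within 500 bp: msl-1 runs between 0.634% and 2.32%, JIL-1 between 1.20% and 4.43% and Clamp between 3.75% and 9.07%, while mle falls to 66.3% in replicate 2.

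Clamp, the gene of the GA-repeat binding protein, had the weakest of the 3 promoter summits in the main list. It lies on 2L at 22165720 to 22169143, minus strand, and the next TSS of another gene, that of CG3635, is 6272 bp away. The peak at 22169117 to 22169412 had its summit 143 bp upstream of the TSS, with a signal of 604, rank 2450, and 23.4% of peaks at or above it. By gene, it ranked 2213 of 5089, near the middle. The replicates gave signals of 219, 199 and 208, which are 21.6%, 30.0% and 28.0% of their lists, with a mean of 26.5% ± 4.42 (SD, n = 3). The percents of replicates 2 and 3 lay close together, while the ranks in replicates 1, 2 and 3 were 2363, 2572 and 2137. The summit stood 145, 143 and 113 bp upstream of the TSS in replicates 1, 2 and 3.

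The Clamp window is shown because its protein reads GA repeats and its own summit carries other short motifs. It covers chr2L:22169186-22169386, minus strand, with the summit base at position 101. Capitals mark TATAAA and CGATA, which is read on the other strand as TATCG.
Clamp promoter: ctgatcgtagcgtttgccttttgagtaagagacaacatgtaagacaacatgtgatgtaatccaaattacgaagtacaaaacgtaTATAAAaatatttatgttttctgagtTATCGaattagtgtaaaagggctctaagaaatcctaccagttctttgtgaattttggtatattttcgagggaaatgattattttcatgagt
The CGATA match was centred 12 bp downstream of the summit and TATAAA 13.5 bp upstream of it. There was no GAGAG in this window. A single GAGAG lay in the 201 bp centred on the Clamp TSS. Of all protein-coding promoter windows of that length, 25.0% hold GAGAG.

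JIL-1, the histone H3 kinase gene, carried the most Row summits of the set. It is also the longest, with 14442 bp on 3L at 11078752 to 11093193, minus strand, and it has 2 TSSs, at 11093193 and 11091856. The promoter peak at 11093079 to 11093416 had its summit 61 bp upstream of the first TSS, with a signal of 1170 and rank 929, so that 8.86% of peaks were at or above it. By gene it ranked 1014 of 5089. In the replicates the signal was 452, 338 and 382, or 6.85%, 14.7% and 11.7% of each list, a mean of 11.1% ± 3.95 (SD, n = 3). By rank, replicate 2 was the lowest of the 3. The summit lay 48, 61 and 65 bp upstream of the TSS in replicates 1, 2 and 3.

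In rank the 3 promoters were separate in each replicate, msl-1 above JIL-1 above Clamp. The ranges over replicates of msl-1 (2.36% to 7.70%) and JIL-1 (6.85% to 14.7%) overlapped, and that of Clamp (21.6% to 30.0%) overlapped neither. Both msl-1 and JIL-1 were read from the same 3 replicate lists, and msl-1 was ahead in 3 of 3. The overlap of their ranges ignores this pairing and does not show that the 2 genes were alike. Their difference was not tested.

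The JIL-1 promoter is shown up to its TSS, at chr3L:11093194-11093354, minus strand, with the summit base at position 101 and CGATA in capitals.
JIL-1 promoter: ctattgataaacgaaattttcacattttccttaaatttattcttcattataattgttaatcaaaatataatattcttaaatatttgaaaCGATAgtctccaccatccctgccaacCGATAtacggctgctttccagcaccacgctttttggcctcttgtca
Of the 5 CGATA matches within 100 bp of the summit, 2 lie in the printed stretch, centred 9 bp upstream and 17 bp downstream of the summit. The other 3 lie downstream of the TSS, where they overlap or adjoin a TATCGATA, the DNA replication-related element, centred 7.5 bp from the TSS.

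JIL-1 was the single gene of the 7 with gene body summits in the main list, beside 12.9% of all protein-coding genes. It had 4. Of the 1415 genes at least as long as JIL-1, 898 (63.5%) had one, with a median of 3 in those that did. The strongest stood at 11084776, in an intron of 1943 bp, 7080 bp downstream of the second TSS, with a signal of 1741 and rank 433. It was thus 1.49 times the signal of the JIL-1 promoter. In the replicates the signals of this summit were 679, 611 and 461, and its ratio to the promoter was 1.50, 1.81 and 1.21, a mean of 1.51 ± 0.301 (SD, n = 3). The intronic summit was above the promoter summit in 3 of 3 replicates.

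The next stood at 11090211, in the 5189 bp intron that begins downstream of the second TSS, with a signal of 930 and rank 1372. Its replicate signals were 385, 306 and 244, and the ratio to the promoter was 0.851, 0.906 and 0.639, a mean of 0.799 ± 0.141 (SD, n = 3), below the promoter in 3 of 3. Both summits were in the thresholded lists of all 3 replicates. The other 2 were weak. That at 11085961, in the same long intron, had a signal of 108 and rank 9532 and passed the threshold in replicate 1 alone. That at 11092375, in the 5′ UTR between the TSSs, had a signal of 163 and rank 7845 and lay 519 bp from the second TSS, just beyond the limit of 500 bp. In replicate 3 the thresholded summit of this site lay 465 bp from that TSS, inside the limit, so replicate 3 counts it as a second promoter summit. Replicates 1 and 2 held the site in their ranked lists alone, with signals of 57.0 and 42.7. Replicate 1 had a different thresholded summit nearby, of signal 51.7, 271 bp from the second TSS.

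**Figure D2:**
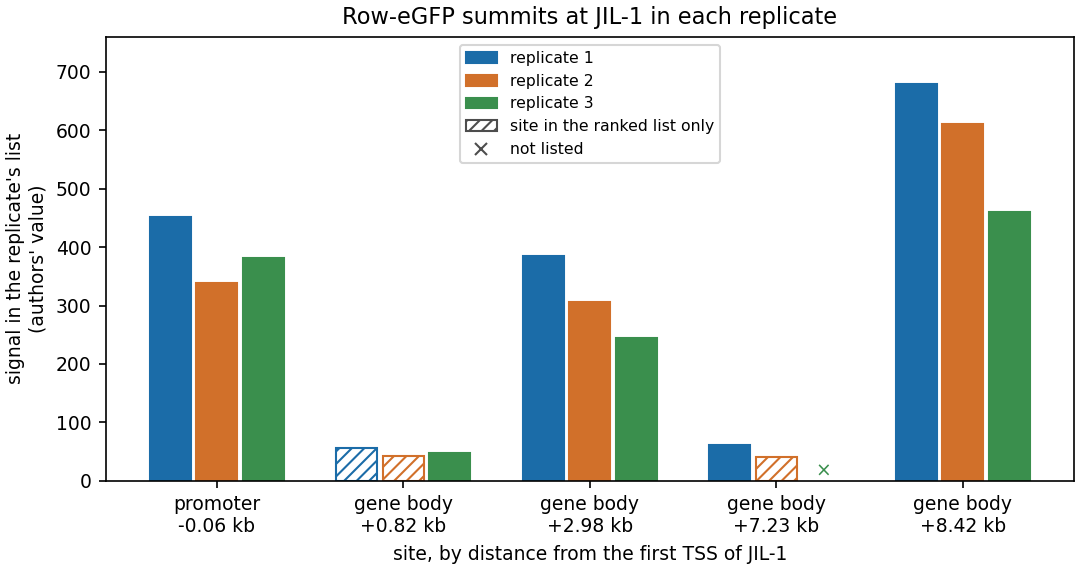
Signal in each replicate's list at the promoter and the 4 gene body summits of JIL-1, ordered by distance from its first TSS. The site 8417 bp downstream is the highest in all 3 replicates, at 679, 611 and 461; hatched bars are sites that only the ranked list holds within reach of the main-list summit, and the cross marks a site not listed.

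The sequence under the strongest JIL-1 intronic summit is shown because it was the one main-list summit of the set with GAGAG within 100 bp, part of the element that CLAMP and the MSL complex recognise. It covers chr3L:11084676-11084876, minus strand, with the summit base at position 101 and GAGAG in capitals.
JIL-1 intron: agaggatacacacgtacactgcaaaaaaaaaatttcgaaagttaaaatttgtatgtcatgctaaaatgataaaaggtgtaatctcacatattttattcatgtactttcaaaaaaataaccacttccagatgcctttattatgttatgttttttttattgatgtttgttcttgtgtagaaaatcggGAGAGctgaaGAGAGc
The 2 GAGAG matches lie at the downstream end of the window and not under the summit itself. GAGAG was in 1 of the 4 JIL-1 gene body windows, beside 19.7% of all main-list summit windows, so such a match is common. Only 29.9% of these bases were G or C.

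Outside JIL-1, the main list held no gene body summit in the set. In the ranked list of replicates 1 and 2, where 40.6% of all genes had a gene body entry, msl-1 had 3, msl-2 had 4 and mle had 2, all in coding exons, with signals up to 57.5, 49.9 and 58.6 and IDRs no lower than 0.374, 0.101 and 0.440. For msl-3, mof and Clamp that list held none. The maps of the 7 genes place the main-list summits and the ranked promoter summits against the gene, and leave out these ranked gene body entries.

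**Figure D3:**
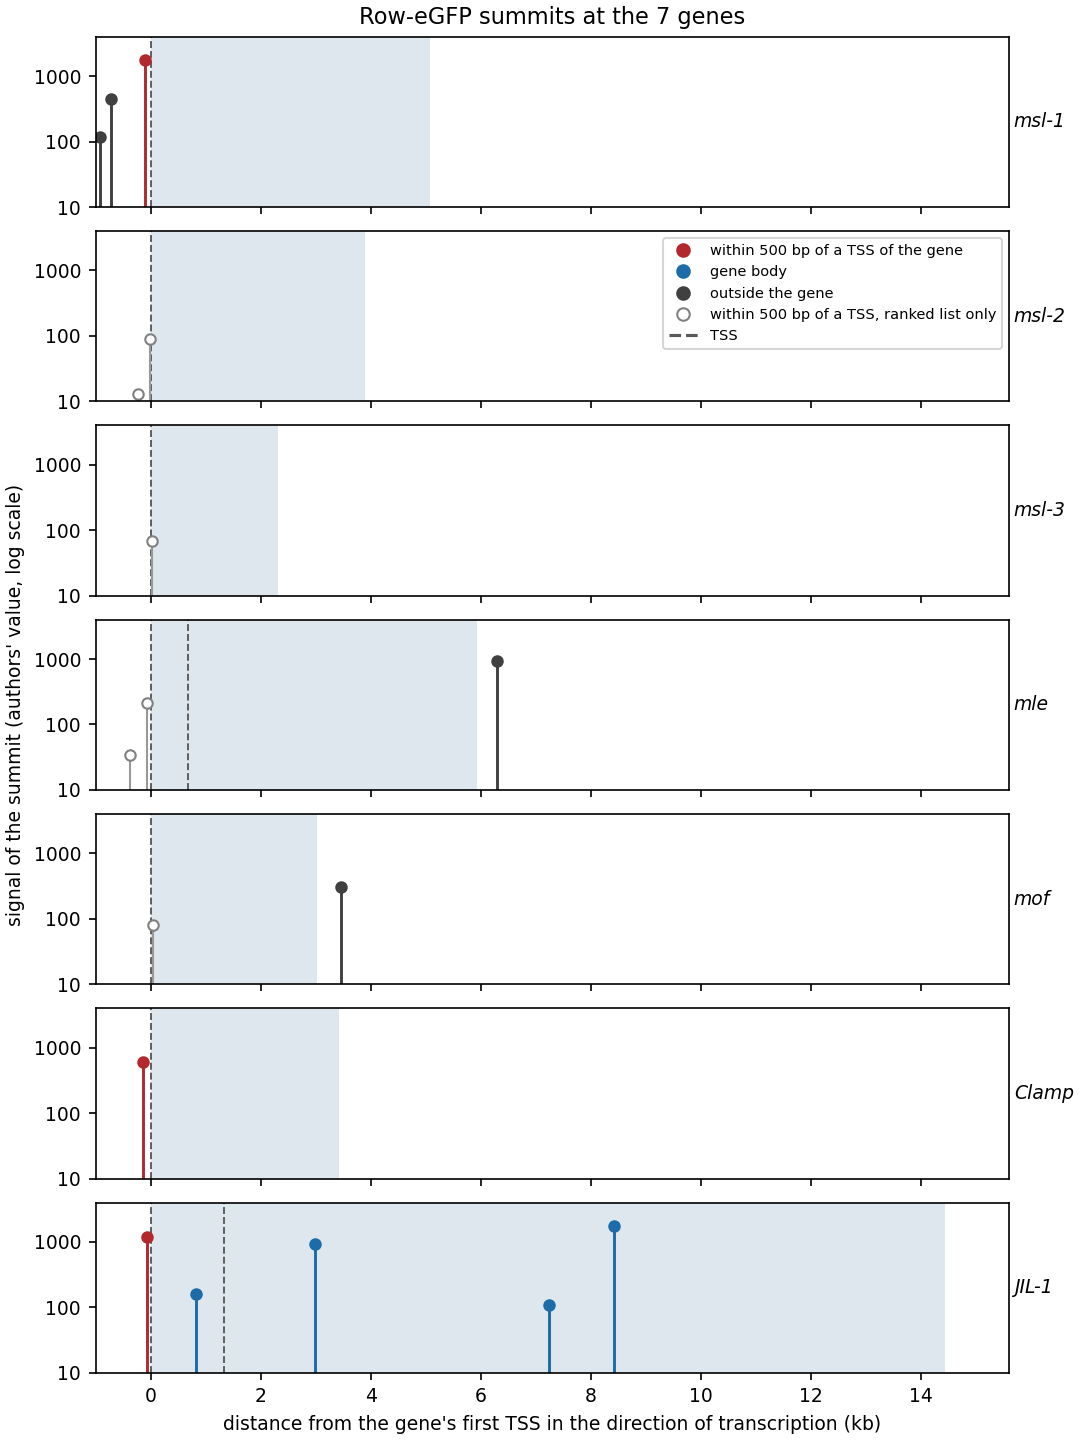
Main-list summits (filled) and promoter summits found only in the ranked list of replicates 1 and 2 (open) at each gene, by distance from its first TSS, with the signal on a log scale; shaded spans are the genes and dashed lines the TSSs. Filled promoter summits stand upstream of msl-1, Clamp and JIL-1, and JIL-1 alone has filled summits inside the gene. Ranked gene body summits are not drawn. The dark summits outside msl-1, mle and mof lie at the TSSs of CG10336, BubR1 and GAA1.

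Each of the 3 promoter summits lay upstream of its TSS, between 61 and 143 bp, at a promoter with no divergent TSS within 500 bp. Of the 5089 genes with a promoter summit, 2570 also had no divergent TSS within 500 bp. The share of all promoter summits that lie upstream at such distances was not computed. By contrast, msl-2 and msl-3 have a divergent TSS within 500 bp and no promoter summit past the threshold. Over all protein-coding genes, 2519 of the 3815 with a divergent TSS within 500 bp (66.0%) had a promoter summit, beside 25.3% of the others. Of the 7 genes, mle and mof went with the more frequent outcome of their class and the other 5 went against it, which describes these genes and is no test.

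Short motifs did not unite the 3 promoter windows of 201 bp. All were searched on both strands, and CGATA is also contained in TATCGATA. CGATA, the core bound by BEAF-32, was in 2 of 3 windows, beside 30.4% of all main-list summit windows and 37.1% of all protein-coding promoters. TATCGATA was in 1 (5.08% of summits and 6.44% of promoters) and TATAAA in 1 (37.9% and 26.9%). The E-box CANNTG was in 2 (58.5% and 63.9%). GAGAG was in none (19.7% and 25.0%), and neither was GGTCACAC, the core of motif 1 (3.05% and 5.68%). The msl-1 window held 1 E-box and none of the others. The counts depend on the window: within 50 bp of the summit, CANNTG and TATCGATA were each in 0 of 3, and within 150 bp GGTCACAC was in 1 of 3.

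The msl-3 promoter, with no summit past the threshold, held several of the motifs and is shown for that reason. These are the 200 bases upstream of its TSS, chr3L:7125534-7125733, minus strand, with GGTCACAC, TATCGATA and CGATA in capitals.
msl-3 upstream: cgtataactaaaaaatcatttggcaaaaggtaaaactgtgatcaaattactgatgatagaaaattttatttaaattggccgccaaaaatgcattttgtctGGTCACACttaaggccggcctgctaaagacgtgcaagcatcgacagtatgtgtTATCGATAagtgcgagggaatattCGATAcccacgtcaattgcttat
Over the 201 bp centred on the TSS, GGTCACAC was found at msl-2 (2 matches), msl-3 (1) and Clamp (1). In the same windows TATCGATA was found at msl-3 and at the first TSS of JIL-1, 1 match each. Of all protein-coding promoter windows of this length, 5.68% hold GGTCACAC and 6.44% hold TATCGATA.

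The roX genes encode the noncoding RNAs of the MSL complex, and both lie on X. Both had a promoter summit in the main list, where 12.2% of noncoding RNA genes did. The roX2 summit lay 2 bp from its TSS with a signal of 202, rank 6828. The stronger of the 2 roX1 summits lay at -109 bp from a TSS, in a roX1 exon, with a signal of 146, rank 8374. These are weak, with 65.1% and 79.9% of the main list at or above them. Both genes had a promoter summit past the threshold in replicates 1 and 3. For roX1, that of replicate 1 lay elsewhere, 57 bp downstream of another TSS. In replicate 2 both genes had ranked promoter summits only, roX1 at an IDR of 0.0218 and roX2 just above the limit of 0.01. Downstream of roX2, another main-list summit at 11580467 had a signal of 319, and its nearest coding TSS was that of nod, 305 bp away.

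Genes linked to dosage compensation by function had promoter summits in 16 of 22 cases in the main list, where 36.4% of all protein-coding genes did. In all 3 replicates 13 of the 22 had one, beside 28.5% of all genes. These genes were listed with earlier results of these data known, so the counts are descriptions. Among the regulators of msl-2 RNA, 4 of 5 had one in the main list (36.4% of all genes). Sxl, which blocks msl-2 translation in females, had a signal of 986, its co-repressor Unr 753, the RNA-binding how 1625 and Rox8 316. The Sxl summit lay 395 bp downstream of a TSS. Hrb27C had a promoter summit past the threshold in 2 replicates and not in the main list.

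Of the JIL-1 partners, Chro, which encodes the interband protein Chromator, had a signal of 8402, rank 4 of the main list, far above every member. For pzg the signal was 823, at a summit nearer to the TSS of CG12974. Among single replicates, Jasper had a promoter summit past the threshold in replicate 1 alone. The pooled list and the list of replicates 1 and 3 also held one. The genes of other GA-repeat binding factors, Trl for GAGA factor and psq for Pipsqueak, had signals of 985 and 580, both above or near that of Clamp. Trl also had 3 gene body summits, the strongest with a signal of 4464 and rank 38, so JIL-1 was not alone in an intragenic summit stronger than its promoter's.

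In the NSL complex, which shares MOF with the MSL complex, 3 of 6 genes had a promoter summit, beside 36.4% of all genes: nsl1 with 393, MBD-R2 with 367 and Rcd5 with 1270, the last nearer to the TSS of CG11593. The genes dgt1, Rcd1 and wds had none. Of the other linked genes 5 of 6 had one (36.4% of all genes), and 2 of 6 had one in all 3 replicates (28.5% of all genes). Top2 (topoisomerase) had 580, Iswi (a chromatin remodeller) 357, the nucleoporin genes Mgtor 395 and Nup153 164, and Pof, whose protein coats the fourth chromosome, 140. The summits of Nup153 and Pof were nearer to the TSSs of CG9784 and CG33228. Mgtor had a promoter summit past the threshold in 2 replicates and Nup153 and Pof in 1 each. Set2, a histone H3 lysine methyltransferase gene, was listed past the threshold in 2 replicates and not in the main list. Among these 22 genes, 7 had a gene body summit, beside 12.9% of all genes. They include genes longer than JIL-1 (psq with 59393 bp, how with 37131 bp and Sxl with 23504 bp). The others are shorter than JIL-1 (Trl with 13121 bp, Hrb27C with 11354 bp, Unr with 10060 bp and Top2 with 6126 bp). Of all genes at least as long as JIL-1, 63.5% had one.

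**Figure D4:**
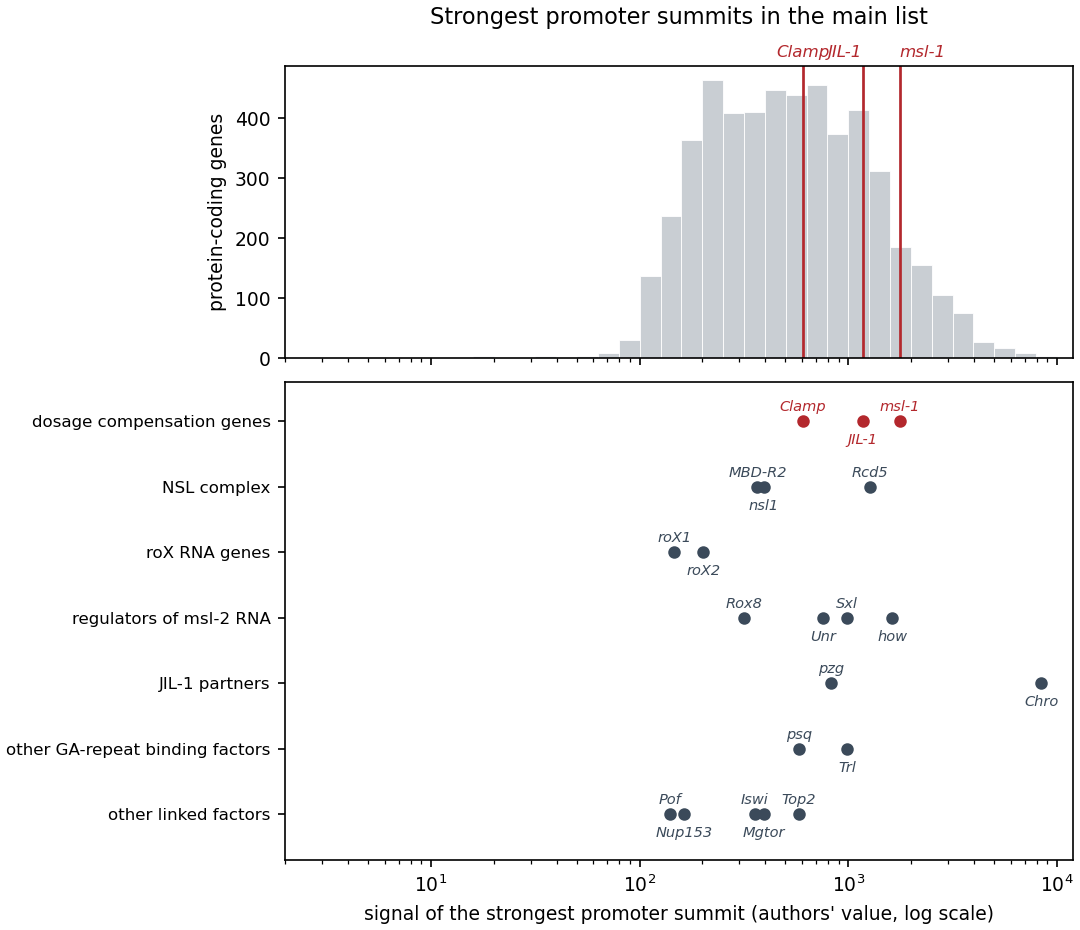
Above, the strongest promoter summit of each of the 5089 genes that have one in the main list, by signal on a log scale, with msl-1, JIL-1 and Clamp as red lines; below, the same signal for the 3 genes and for the linked genes that have a promoter summit. Clamp, at 604, is close to the median of 507, msl-1 and JIL-1 lie above the upper quartile of 1016, and Chro, at 8402, is the highest of the named genes.

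By rank in the 3 replicates, msl-1 was most like Mau2, a cohesin loader gene, of 3983 candidate genes bound in all 3 replicates. Mau2 had 4.90%, 7.55% and 3.38% of each list at or above it, a summed difference of 2.40 percentage points. JIL-1 was most like Nrx-1, the neurexin gene, with a summed difference of 1.22, and Clamp most like PNUTS, with 2.53. The likeness rests on 3 values per gene.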

How the data were processed

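Peak lists from 3 biological replicates of 1 group were analysed. Per the labels, coordinates are on dm6. Neither aligner nor caller is named in the sources used here. The authors deposited, per peak, a score (the IDR scaled to at most 1000), a signal value, and in ranked lists the −log10 of the global IDR. The smallest deposited −log10 IDR in the conservative list was 2.00. Its ranked list copies the intervals of both inputs in separate columns; 90.2% of the first input's are in replicate 1 and 72.0% of the second's in replicate 2. Its signal values are those of a pool.

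Summits, distances, ranks and motif matches were computed with Python 3.11.15, numpy 2.4.6 and pandas 2.3.3. Genes came from Ensembl release 115 (13968 protein-coding genes, 19630 TSSs) and sequence from RefSeq. The assignment of summits to genes was tested on simulated data. The members and gene lists were chosen with earlier results of these data known. All members and all genes of the lists are named, with nearest and divergent neighbours and the gene closest in rank. The gene fixed as Mtor is Mgtor in the annotation. The biosamples differ, so SDs measure the spread between them. Alternatives varied the TSS distance, the IDR limit, the list, the annotation and the replicates. Motif windows of 50 and 150 bp on each side were also computed.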

Additional observations from a re-analysis of the deposited data

How the results depend on the processing

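The count of 3 genes with a promoter summit stayed at the same 3 genes at TSS distances of 250 and 1000 bp, IDR limits of 0.001 and 0.05, with the nearest TSS only and without replicate 1. RefSeq TSSs, which differ from the Ensembl ones at 1 position, and the list without replicate 3, which is the main list itself, could not change it. With the pooled list and without replicate 2 it became 4, mle being added. The median place of the bound genes, 8.86% in the main list, was 13.4% at an IDR limit of 0.001, where the list is shorter. The lists without 1 replicate gave 8.86% to 16.9%, the higher value without replicate 2, where mle enters. They change the choice of peaks alone, since their signals are still those of the pool, so this range does not show stability. Counting ranked peaks, 5 genes in place of 3 had a promoter summit in all 3 replicates. Of all protein-coding genes, 65.6%, 52.2% and 52.5% had one in the ranked lists of replicates 1, 2 and 3. The share with one in all 3 ranked lists was not computed, so the 5 have no background. The JIL-1 gene body summits numbered 2 at an IDR limit of 0.001 and in the pooled list, in place of 4. Clamp moved to 35.2% at 0.001, 18.8% at 0.05 and 18.5% in the pooled list, as list lengths changed, and JIL-1 to 13.4% at 0.001. The linked genes with a promoter summit numbered 12 with the nearest TSS only, where 28.2% of all genes had one, and 19 in the pooled list, where 42.7% did. At a TSS distance of 250 bp they numbered 15, Sxl being lost, where 30.7% of all genes had one. No paired analysis was possible because there is a single group and the results come from no test. Depth is unknown, so a summit missing from a list is not evidence of no binding. The 3 replicates limit every SD given.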
